A study of Mus musculus with 6 samples.

Results

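Alpha and beta tubulin transcripts were examined in brain tissue of mice lacking Dap12, the signalling adaptor of microglia encoded by Tyrobp. The members were Tuba1a, Tuba1b, Tuba1c, Tuba4a, Tubb2a, Tubb2b, Tubb3, Tubb4a, Tubb5 and Tubb6, taken through every probe set (a set of short probes read out as 1 signal) whose platform annotation gives 1 of these symbols and no other. This found 13 probe sets for 8 of the 10 genes, among 45037 non-control probe sets. Tuba1b and Tuba1c had no probe set of their own. Total RNA was measured on 6 one-colour Affymetrix arrays of mice aged 1 month. The Dap12-ko group held 3 arrays, named 67, 68 and Ko1, from mice without a working copy of Dap12. The Dap12-het group held 3 arrays, named 75, 76 and 81, from heterozygous mice, which keep 1 copy. The tissue is described as midbrain with diencephalon and basal ganglia, and no wild-type group was analysed here. The labels give neither the strain, the sex, the kind of Dap12 allele nor whether RNA of several animals was pooled, so p-values measure only the spread between these samples.

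Microtubules are hollow polymers of alpha-beta tubulin dimers, and they give axons and dendrites their shape and serve as tracks for transport. Mammals carry several genes for each subunit, and the encoded isotypes differ mostly in their acidic tails, where enzymes add and remove glutamate, tyrosine and other groups. Tubulin messages are very abundant in brain while axons and dendrites are growing. The level of unassembled tubulin feeds back on the stability of the messages. In whole tissue, fewer cells of a type and less RNA per cell cannot be told apart.

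Levels are given as the deposited signal in arbitrary units, in the order 67, 68, Ko1 for the knockout and 75, 76, 81 for the heterozygous arrays. Changes are differences of log2(signal + 16), knockout minus heterozygous, with the standard error of a limma model and a p-value adjusted by Benjamini-Hochberg over all 22518 probe sets tested, with a threshold of 0.05. Because of the added 16, changes of dim probe sets are understated. Some facts of the arrays bear on every value. Tyrobp itself fell, from 70.7, 68.2 and 77.6 on the heterozygous arrays to 2.28, 23.7 and 12.9 on the knockout arrays (limma log2 change -1.68 ± 0.33, adjusted p = 0.0439). This call was lost when any 1 of the 5 arrays other than knockout Ko1 was left out (adjusted p = 0.0888 to 0.216). The array-wide trimmed mean was 100 on each array, but the distributions differed in shape. Between 120 and 132 non-control probe sets exceeded a signal of 5000 on the knockout arrays, against 21 to 31 on the heterozygous arrays. The brightest non-control signal was 14491 to 36156 on the knockout arrays and 6219 to 6562 on the heterozygous ones. All 42 probe sets for bacterial and phage spike-in controls separated the groups, each of them highest on the knockout arrays, with a median log2 difference of 1.78. The part of these differences in the tubulin values was not tested.

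Among the tubulins, 1 probe set passed the test. Tuba1a rose, while no other member passed in either direction. Of the 13 probe sets, 12 were bright enough to be tested, so 1 of 12 rose and 0 fell, and 4 had an unadjusted p under 0.05 (limma). Over all tested probe sets 1.98% were called, 1.24% higher and 0.733% lower, and 20.9% had an unadjusted p under 0.05 (limma). The share of all calls that were higher was 62.9%, but 17.2% with each array centred on its median. In that setting 0 tubulins were called and 5 had an unadjusted p under 0.05, against 6731 of the 22518 tested (limma). With the deposited scaling the groups did not overlap for 5 of the 12, with 4 higher and 1 lower on the knockout arrays. Of all tested probe sets, 27.4% did not overlap, 14.9% higher and 12.5% lower. Changes were above 0 for 7 of the 12, against 50.1% of all tested probe sets, and the median change was 0.14 against 0.00 for all. The 12 included 1, Tuba4a probe set 1417375_at, that was dim on the heterozygous arrays and passed the filter on level through its knockout values. These counts therefore describe the tested probe sets and not every tubulin.

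**Figure D1:**
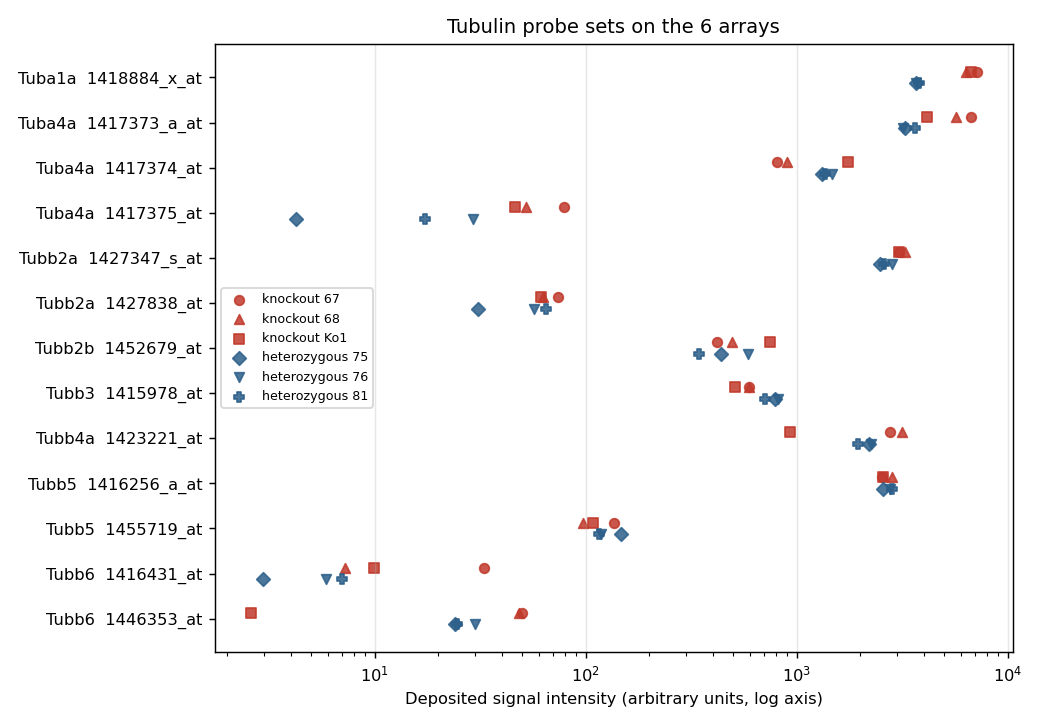
Deposited signal (log axis, arbitrary units) of each of the 13 tubulin probe sets on the 6 arrays; red symbols are the 3 knockout arrays and blue symbols the 3 heterozygous arrays, 1 symbol shape per array. Tuba1a sits at 6326 to 7139 on the knockout arrays and at 3679 to 3796 on the heterozygous arrays, and Tubb4a on knockout Ko1 (936) lies apart from the other 5 arrays.

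Tuba1a encodes the main alpha-tubulin of growing neurons, and mutations of its human counterpart cause malformations of the cortex. Its probe set (1418884_x_at) read 7139, 6326 and 6736 on the knockout arrays against 3679, 3690 and 3796 on the heterozygous arrays. All 3 knockout arrays were higher than all heterozygous arrays, and the values within each group lay close together. The group means were 6734 ± 407 and 3721 ± 64.7 (SD, n = 3), a ratio of 1.81. On the log2 scale Tuba1a rose by 0.85 ± 0.13 (limma adjusted p = 0.0287). The increase was of like size on each array, at 0.94, 0.76 and 0.85 above the heterozygous mean. The suffix of this probe set marks probes that may also bind other transcripts, and near-identical alpha-tubulin messages cannot be told apart by it.

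The Tuba1a call was lost under other scalings and without 5 of the 6 arrays, each left out in turn. With quantile normalization the change was 0.29 (adjusted p = 0.267) and with each array centred on its median 0.45 (adjusted p = 0.139). Leaving out knockout 67 gave 0.81 (adjusted p = 0.0874), knockout 68 gave 0.90 (adjusted p = 0.122), and heterozygous 75, 76 and 81 gave 0.84, 0.85 and 0.87 (adjusted p = 0.188, 0.122 and 0.137). It was kept without knockout Ko1 (0.85, adjusted p = 0.0014) and lost, with the log2 change itself unmoved, when all probe sets were tested (adjusted p = 0.116) or the variance was modelled with no trend (adjusted p = 0.0677). The direction was higher in all 17 alternative settings, between 0.29 and 0.90. Counted from the brightest non-control probe set of each array, Tuba1a held ranks 58, 79 and 45 on the knockout arrays and ranks 115, 118 and 108 on the heterozygous arrays. So its place in the order of signals, which does not depend on a linear scaling, was also higher on every knockout array.

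Bright probe sets as a class were higher on the knockout arrays. Of the 495 tested probe sets with a mean signal of 2000 or more over the 6 arrays, 48 were called higher and 1 lower (limma), the median change was 0.31, and 47.7% lay above all heterozygous arrays on every knockout array. Of the tubulins, 5 probe sets belong to this class, those of Tuba1a, Tubb2a, Tubb4a and Tubb5 and 1 of Tuba4a. Among them 3 were above on every knockout array, and their median change was 0.24. The part of this shift of bright probe sets in the Tuba1a call was not tested.

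**Figure D2:**
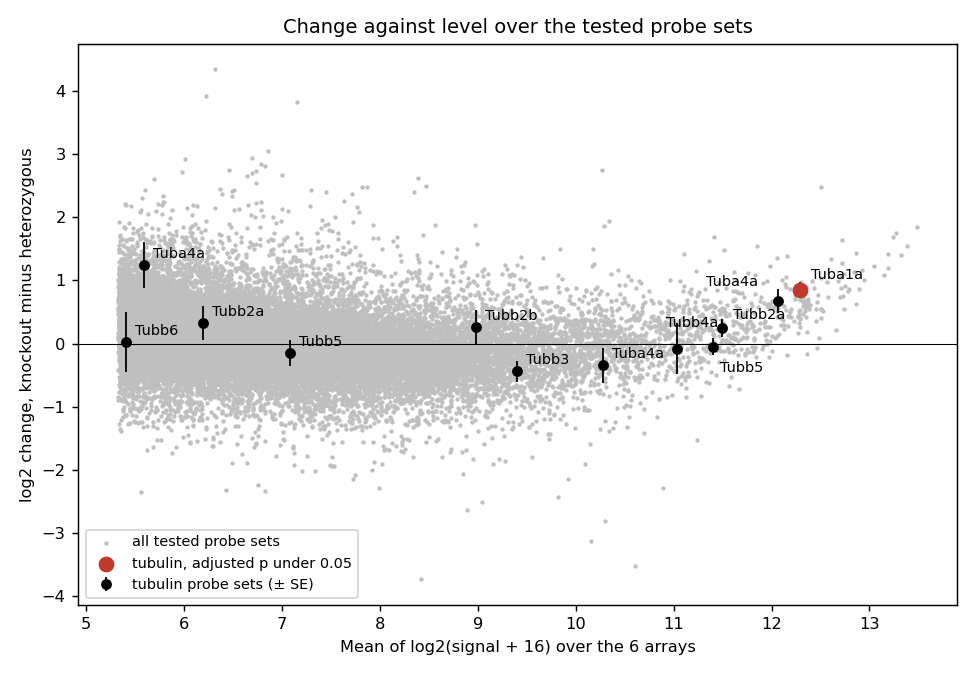
Change (knockout minus heterozygous, log2) against the mean of log2(signal + 16) for the 22518 tested probe sets (grey points), with the 12 tested tubulin probe sets in black (bars are ± SE of the limma model) and Tuba1a, adjusted p = 0.0287, in red. At the right end the grey points bend upwards, with a median change of 0.31 for mean signals of 2000 or more, and Tuba1a and the brightest Tuba4a probe set lie within that bend.

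Tuba4a is the alpha-tubulin that is made without the carboxy-terminal tyrosine of most others. Its brightest probe set (1417373_a_at) read 6689, 5715 and 4132 on the knockout arrays against 3271, 3198 and 3658 on the heterozygous arrays. All knockout values were above all heterozygous values, though knockout Ko1 by little. The means were 5512 ± 1290 and 3376 ± 247 (SD, n = 3), with a log2 change of 0.68 ± 0.19 that did not pass (limma adjusted p = 0.104). It passed without knockout Ko1 (0.87, adjusted p = 0.00224) and was 0.29 with knockout Ko1 as the only knockout array. With quantile normalization the change was 0.19 (adjusted p = 0.598) and with each array centred on its median 0.28 (adjusted p = 0.274).

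The other Tuba4a probe sets gave different pictures of the same gene. Probe set 1417374_at read 811, 902 and 1747 on the knockout arrays against 1317, 1469 and 1369 on the heterozygous arrays. Here knockout 67 and 68 were the lowest arrays and knockout Ko1 the highest, and the change was -0.34 ± 0.28 (limma adjusted p = 0.511). Without knockout Ko1 it was -0.68 (adjusted p = 0.0077), and with knockout Ko1 as the only knockout array the value was 0.33. The dim probe set 1417375_at read 78.9, 52.2 and 46.4 against 4.24, 29.2 and 17.4, a change of 1.24 ± 0.36 (limma adjusted p = 0.104). It passed the filter on level through its knockout values. All 3 of its knockout values were above the heterozygous ones, which themselves ranged over several-fold. Comparing probe sets within arrays, the change of 1417373_a_at exceeded that of 1417374_at by 1.02 on the log2 scale (exact permutation p = 0.3, two-sided) and that of 1417374_at was below that of 1417375_at by -1.59 (exact permutation p = 0.1, the smallest that 3 against 3 arrays allow). Over the 6 pairs of probe sets within a tubulin gene the smallest Benjamini-Hochberg value was 0.6. With 0.1 the smallest possible exact permutation p, no pair could pass 0.05. This test therefore cannot decide whether the probe sets disagree. The change of 1417373_a_at differed from that of 1417375_at by -0.56 (exact permutation p = 0.2). The 3 remaining pairs, in Tubb2a, Tubb5 and Tubb6, differed by -0.08, 0.10 and 0.52 (exact permutation p = 0.9, 0.6 and 0.5).

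**Figure D3:**
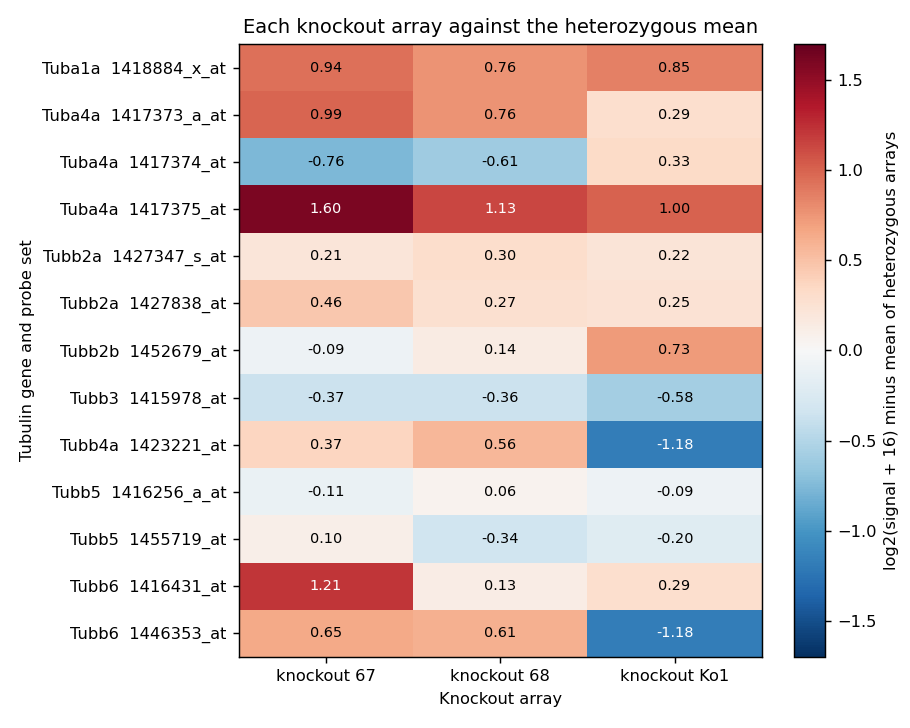
Difference of log2(signal + 16) on each knockout array (columns) from the mean of the 3 heterozygous arrays, for each tubulin probe set (rows); red is higher, blue is lower. Tuba1a is at 0.76 to 0.94 on all 3, while Tubb4a is at 0.37, 0.56 and -1.18 on knockout 67, 68 and Ko1.

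Tubb5 and Tubb2a are broadly used beta-tubulins and supply much of the beta-tubulin of brain. The bright Tubb5 probe set (1416256_a_at) read 2534, 2840 and 2564 on the knockout arrays against 2581, 2768 and 2846 on the heterozygous arrays. The groups overlapped, with means of 2646 ± 169 and 2732 ± 136 (SD, n = 3) and a change of -0.05 ± 0.14 (limma adjusted p = 0.885). Its ranks were 360, 328 and 399 on the knockout arrays against 299, 252 and 227, so that with equal signals it stood lower in the order of each knockout array. A dimmer Tubb5 probe set, at 114 ± 20.8 against 127 ± 17.2 (SD, n = 3), changed by -0.15 ± 0.21 (limma adjusted p = 0.734). Tubb2a (1427347_s_at) read 3061, 3267 and 3073 against 2490, 2848 and 2601, higher on every knockout array with a ratio of means of 1.18. That difference did not pass (0.24 ± 0.14, limma adjusted p = 0.364) and its sign turned with each array centred on its median (-0.16). The suffix of this probe set marks probes shared by several transcripts. A second Tubb2a probe set changed by 0.33 ± 0.27 with overlapping groups (limma adjusted p = 0.517).

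Tubb3 encodes the neuron-specific beta-tubulin known as class III or TuJ1 and was the only member whose signal was lower on every knockout array. It read 595, 596 and 511 on the knockout arrays against 791, 819 and 710 on the heterozygous arrays. The groups did not overlap, and the means were 567 ± 48.7 and 773 ± 56.9 (SD, n = 3). The change of -0.44 ± 0.17 had an unadjusted p of 0.0298 and did not pass (limma adjusted p = 0.188). It was below 0 in each of the 17 alternative settings, between -0.84 and -0.34, and in none of them did it pass. Its ranks were 2098, 2152 and 2820 on the knockout arrays against 1728, 1652 and 1948. Other neuronal markers did not share one direction. Of 13 probe sets for these markers 2 were called higher, both of Syt1, a synaptic vesicle protein: 1421990_at (2.61 ± 0.28) and 1431191_a_at (2.07 ± 0.26), each at a limma adjusted p of 0.0171. The brightest Syt1 probe set changed by 0.27 ± 0.19 with overlapping groups (limma adjusted p = 0.448). Over 11464 genes tested on their brightest probe set, 41.5% had changes above 0. The share was 74.3% among tested probe sets with a mean signal of 2000 or more. Of the 6 neuronal markers tested, 0 passed on their brightest probe set (limma) and 5 had changes above 0. The other was Thy1, lower on every knockout array like Tubb3, at 2660, 2461 and 1760 against 3213, 3233 and 2860 (-0.45 ± 0.19, limma adjusted p = 0.218). The summed signal of the 6 was 15953 to 20806 on the knockout arrays against 14102 to 14666. Its largest part was Snap25, with means of 6914 and 3703.

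Tubb2b is a beta-tubulin of newly formed neurons and of radial glia. Its probe set (1452679_at) read 418, 492 and 752 on the knockout arrays against 438, 588 and 344 on the heterozygous arrays. The groups overlapped, with means of 554 ± 175 and 456 ± 123 (SD, n = 3), and the change was 0.26 ± 0.27 (limma adjusted p = 0.625), or -0.14 with each array centred on its median. Of 4 immature neuron markers tested 0 passed (limma) and 1 had a change above 0, against 41.5% of all genes on their brightest probe set. That 1 was Stmn1, a stathmin, at 0.80 ± 0.25 (limma adjusted p = 0.12). The brightest probe set of Dcx, the microtubule protein doublecortin, read 83.5, 128 and 117 on the knockout arrays against 202, 156 and 368 (-0.97 ± 0.31, limma adjusted p = 0.133). Another Dcx probe set, 1418139_at, changed by 0.04 ± 0.36 with overlapping groups (limma adjusted p = 0.963). A dim, untested one, 1448974_at, was higher on every knockout array.

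Tubb4a is a beta-tubulin of neurons and oligodendrocytes, and mutations of its human counterpart cause a leukodystrophy. It split the knockout arrays. It read 2770 and 3162 on knockout 67 and 68 but 936 on knockout Ko1, against 2212, 2243 and 1966 on heterozygous 75, 76 and 81. Knockout 67 and 68 were the highest of the 6 arrays and knockout Ko1 the lowest by far. The knockout SD was 1189 around a mean of 2289, and the heterozygous SD 152 around 2140 (n = 3). The change was -0.08 ± 0.40 (limma adjusted p = 0.931). It became 0.47 without knockout Ko1 (adjusted p = 0.0242) and -1.18 with knockout Ko1 as the only knockout array (adjusted p = 0.0248). In the latter fit the spread comes from the heterozygous arrays alone, and the lone knockout array is assumed to vary like them. The knockout mean thus lay in the gap between its arrays.

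Markers of other cells also differed between the knockout arrays. The summed signal of 5 measured markers of myelinating oligodendrocytes was 59768, 45005 and 23153 on knockout 67, 68 and Ko1 and 16665 to 16902 on the heterozygous arrays. Much of that sum is Mbp, myelin basic protein. Mag, a myelin adhesion protein, read 1516, 1747 and 565 on the knockout arrays and 1317, 1204 and 1054 on the heterozygous ones, with knockout Ko1 below them as for Tubb4a. The brightest probe sets of Mbp, Mobp and Cnp were instead above all heterozygous values on knockout Ko1 too. Another Cnp probe set, 1418980_a_at, read 3117, 3281 and 1184 against 1856, 1798 and 1628, with knockout Ko1 lowest. For Cnp 1449296_a_at and for Mog, knockout Ko1 (905 and 484) lay within the heterozygous values. For choroid plexus and ependyma the summed signal of 4 markers was 16207, 17829 and 475 against 706 to 3599. Most of that sum is Ttr, whose brightest probe set read 16069, 17643 and 402 against 622, 1539 and 3532. Folr1 and Kl were above all heterozygous values on knockout Ko1, at 24 and 26.6, while Foxj1 was below them at 23. For pituitary the summed signal of 3 markers was 63, 64 and 644 against 36 to 94. None of these markers was at 0 on any array, and the brightest probe set of Gh, growth hormone (1456595_x_at), was at 507 on knockout Ko1 and between 0.947 and 8.99 elsewhere. Another Gh probe set, 1460310_a_at, read 75.9, 49.9 and 329 on the knockout arrays against 14.6, 1.06 and 1.89. Whether these marker differences reflect tissue make-up or the differing signal range of the arrays was not tested. Their part in the Tubb4a values was not tested either.

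Tubb6 is better known from muscle and other tissues outside the brain. Its probe set 1446353_at read 50, 48.4 and 2.6 on the knockout arrays against 24, 30 and 24.7 on the heterozygous arrays. As for Tubb4a, knockout 67 and 68 were highest and knockout Ko1 lowest, and the change was 0.03 ± 0.48 (limma adjusted p = 0.981). The other Tubb6 probe set, 1416431_at, was too dim to be tested, at 33.2, 7.24 and 9.89 against 2.97, 5.88 and 6.99.

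The change of Tuba1a was also set against those of the other tubulins within arrays. With 3 against 3 arrays the smallest exact permutation p is 0.1, so none of the 7 comparisons could pass 0.05. In these, the change of Tuba1a exceeded that of the brightest probe set by 1.29 for Tubb3, 0.93 for Tubb4a, 0.90 for Tubb5, 0.82 for Tubb6 and 0.61 for Tubb2a (log2 scale). For each of these 5 all knockout arrays lay on 1 side (exact permutation p = 0.1, two-sided, the smallest possible; Benjamini-Hochberg 0.14 over 7 comparisons). On knockout 67, 68 and Ko1 the excess was 0.56, 0.20 and 2.03 for Tubb4a and 0.29, 0.15 and 2.03 for Tubb6. Both were thus carried mostly by knockout Ko1, where Tubb6 read only 2.6. For Tubb5 the excess was 1.04, 0.71 and 0.94, with a heterozygous SD of 0.06. Against Tubb2b it was 0.59 (exact permutation p = 0.2) and against Tuba4a 0.17 (exact permutation p = 0.7).

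**Figure D4:**
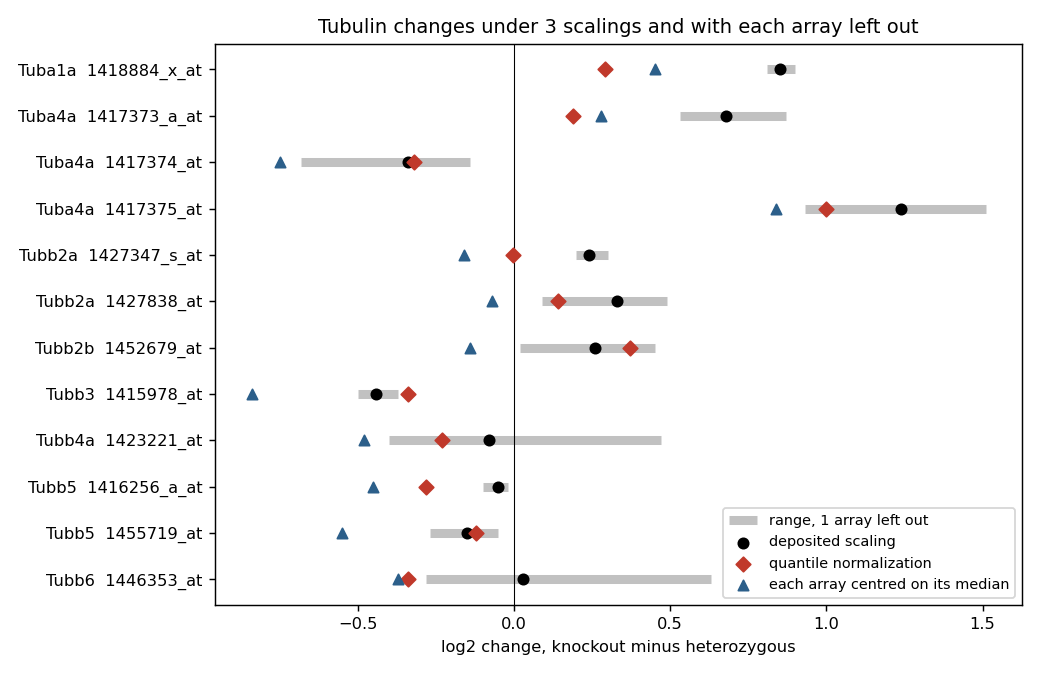
Change of each tested tubulin probe set (knockout minus heterozygous, log2) with the deposited scaling (black), quantile normalization (red) and each array centred on its median (blue); grey bars span the 6 fits that leave out 1 array. Tuba1a moves from 0.85 to 0.29 and 0.45, Tubb3 stays below 0, and the grey bar of Tubb4a crosses 0, from -0.40 to 0.47.

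A further 5 probe sets list a member beside another locus and were assigned to no gene. The one listing Tuba1b with Gm5620 (1423846_x_at) was the brightest of all tubulin probe sets, at 9572, 9092 and 7234 on the knockout arrays against 5282, 4901 and 5299. All knockout values were above the heterozygous ones (0.73 ± 0.15, limma adjusted p = 0.052). The one listing Tubb2b with Tubb2a-ps2 (1449682_s_at) read 315, 522 and 443 against 74.4, 124 and 43.1. It rose by 2.26 ± 0.33 (limma adjusted p = 0.0259), while the probe set of Tubb2b alone changed by 0.26. The 2 that list Tuba1c with Gm6682 and the 1 that lists Tuba1a with Gm6682 had mean signals between 19.9 and 51.6 in either group, and none of these 3 was called, 1 of them being too dim to test.

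Genes that fold, modify, nucleate or bind tubulin were taken from lists and counted on the brightest probe set of each gene. Over 11464 genes tested this way 1.37% were called, 41.5% had a change above 0, and the median change was -0.09. Of 5 other tubulins 0 passed (limma). Tubb4b, a widely expressed beta-tubulin, read 1248, 1598 and 1133 on the knockout arrays against 1990, 1938 and 1770, lower on each (-0.53 ± 0.18, limma adjusted p = 0.145). Its dim probe set 1456470_x_at changed by -0.16 ± 0.58 with overlapping groups (limma adjusted p = 0.903). Another dim one, 1456078_x_at, went the other way, at 66.2, 62.9 and 20.9 against 16.6, 17.9 and 6.92 (1.08 ± 0.38, limma adjusted p = 0.158). This last one passed the filter on level through its knockout values. Tube1, the epsilon-tubulin of centrioles, read 89.9, 69.7 and 36.9 against 13.2, 18.7 and 17.4 (1.28 ± 0.32, limma adjusted p = 0.0754). It too passed the filter on level through its knockout values.

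Folding of tubulin begins with prefoldin and the chaperonin CCT and ends with cofactors that join alpha to beta. Of 14 prefoldin and CCT genes 0 passed on the brightest probe set (limma), and the median change was 0.05. A second probe set of Cct7, a CCT subunit, fell from 1107, 1082 and 958 to 474, 513 and 540 (-1.02 ± 0.16, limma adjusted p = 0.0299), while the brightest changed by 0.16 ± 0.19. Of 7 cofactor genes 0 passed (limma), with a median of 0.05. The brightest Tbcd probe set read 138, 107 and 161 against 258, 220 and 327 (-0.91 ± 0.23, limma adjusted p = 0.0801). A second one went the other way, at 184, 189 and 237 against 162, 154 and 127 (0.42 ± 0.20, limma adjusted p = 0.278). Tbcb changed by -0.60 ± 0.19 (limma adjusted p = 0.126).

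Enzymes that modify tubulin tails and lysines had 0 of 17 genes past the threshold (limma), with a median of -0.07. A dim second probe set of Ttll7, a polyglutamylase of neurons, rose from 1.66, 8.75 and 4.79 to 84.9, 221 and 43.5 (2.43 ± 0.47, limma adjusted p = 0.0437), while its brightest one had a change of -0.10 ± 0.18. The dim probe set passed the filter on level through its knockout values, so that it could be tested only because it was higher there. Of 8 genes of the gamma-tubulin ring complex, which nucleates microtubules, 0 passed (limma) and the median was -0.04. In that list Tubgcp4 changed by -0.64 ± 0.27 on a second probe set (limma adjusted p = 0.222). Its brightest changed by 0.16 ± 0.29 and 1429345_at by 0.10 ± 0.24 (limma adjusted p = 0.784 and 0.852). Tubgcp3 changed by -0.44 ± 0.26 (limma adjusted p = 0.367). Ttc5, which recognises tubulin as it is made and starts the decay of its message, changed by -0.21 ± 0.26 (limma adjusted p = 0.68).

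Among proteins that act on the polymer, Mapre3, the EB3 protein that tracks growing plus ends in neurons, was the 1 of 9 plus-end genes called. It fell from 495, 495 and 562 to 189, 143 and 178 (-1.52 ± 0.19, limma adjusted p = 0.0171), with no overlap, and the list's median was -0.19. Of 7 severing and minus-end genes 0 passed (limma), with a median of -0.28. Camsap2 changed by 0.72 ± 0.18 on a second probe set (limma adjusted p = 0.0763) and by 0.01 ± 0.16 on its brightest. A second probe set of Camsap1 changed by -0.54 ± 0.21 (limma adjusted p = 0.203) and its brightest by -0.45 ± 0.21 (limma adjusted p = 0.265). Another, 1455356_at, went the other way (0.48 ± 0.23, limma adjusted p = 0.268). All 4 stathmins, which bind unassembled tubulin dimers, had changes above 0 with a median of 0.24, and 0 passed (limma). Changes above 0 were found for 41.5% of all genes on their brightest probe set. The share was 74.3% of tested probe sets with a mean signal of 2000 or more, to which Stmn1 and Stmn3 belong. Stmn1 read 7658, 8188 and 4206 against 3775, 3856 and 3389 (0.80 ± 0.25, limma adjusted p = 0.12), and its second probe set changed by 0.64 ± 0.29 (limma adjusted p = 0.257).

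The actin cytoskeleton served as a comparison and was not matched for level. Pfn1, a profilin, had knockout and heterozygous means of 440 and 379, far below the brightest probe sets of the other genes. Of 5 genes of actin and its binding proteins 3 rose and 0 fell (limma), with a median of 0.86. Actb read 11622, 9172 and 7908 on the knockout arrays against 4313, 5189 and 5680 (0.91 ± 0.18, limma adjusted p = 0.0485). Actg1 rose by 0.88 ± 0.17 (limma adjusted p = 0.0424) and Pfn2, a neuronal profilin, by 0.86 ± 0.15 (limma adjusted p = 0.0386). A second, dimmer Actb probe set rose by 2.48 ± 0.37 (limma adjusted p = 0.0272). The brightest probe sets of Actb, Actg1 and Pfn2 thus showed changes close to the 0.85 of Tuba1a. Other probe sets of the list changed less and were not called (limma). The brightest of Cfl1 and Pfn1 changed by 0.59 ± 0.17 and 0.12 ± 0.40 (adjusted p = 0.113 and 0.892). Pfn2 probe sets 1418210_at and 1436993_x_at changed by 0.36 ± 0.14 and 0.52 ± 0.18 (adjusted p = 0.201 and 0.157), and a second of Cfl1 by -0.24 ± 0.35 (adjusted p = 0.739). A difference between the actin and tubulin changes was not tested.

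**Figure D5:**
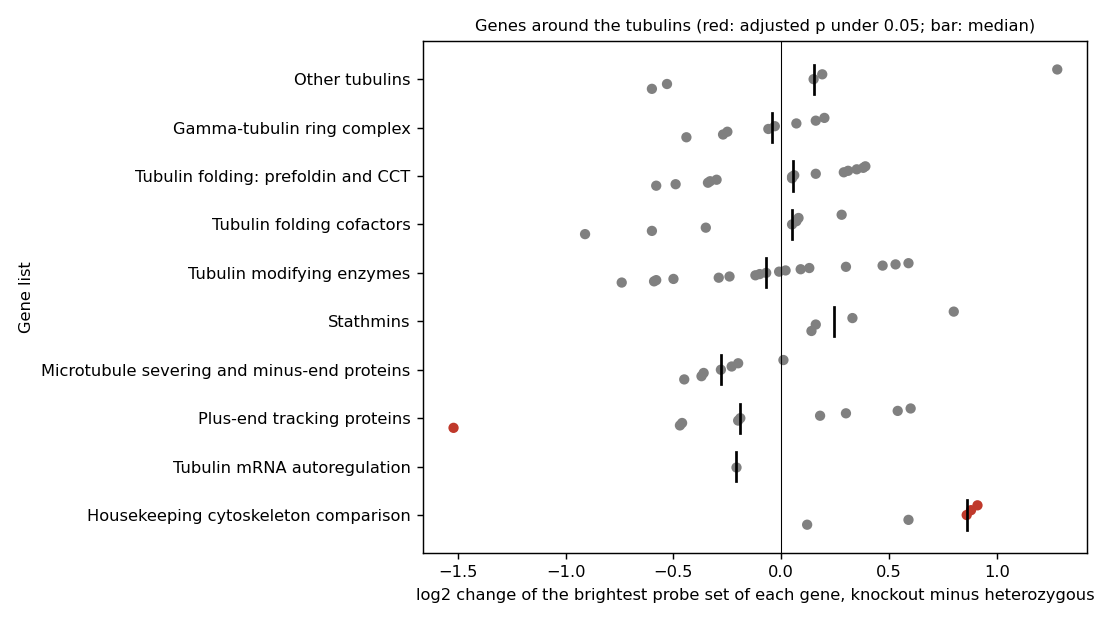
Change of the brightest probe set of each tested gene (knockout minus heterozygous, log2) in the lists of genes around the tubulins; red points have an adjusted p under 0.05, grey points do not, and black bars are medians. Mapre3 at -1.52 stands apart among the plus-end tracking proteins, and 3 of the 5 actin-related genes are red, near 0.86.

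Tuba1a was both the brightest member probe set and the one with the smallest p. The tested probe sets of other genes whose log2 values followed it most closely over the 6 arrays were those of Blzf1 (Pearson r = 0.9966), Prnp, the prion protein (r = 0.9960), and Igfbp6 (r = 0.9950). Of 19910 probe sets compared, 767 had r above 0.9, and all share the same 6 arrays and their scaling, so these values are a description.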

How the data were processed

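The values used are signal intensity values on a linear scale, 1 per probe set and array, as deposited by the authors. They came from GCOS, the scanner software, per the submitters' processing notes; its version and summary algorithm were not given in the sources consulted. The trimmed mean was 100 on every array (2% removed at each end), so the arrays had been brought to a common level. Gene names came from the platform annotation: 34945 probe sets had 1 symbol, 932 several and 9160 none, and 0 symbols changed through the gene identifier.

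From these, log2(signal + 16) was computed. After removal of 64 control probe sets, those with a mean log2 value above the median (22518) entered limma 3.58.1 under R 4.3.3 (a group term, eBayes with trend, two-sided). Benjamini-Hochberg values under 0.05 were called. The limma step was tested on simulated data. Standard errors come from this model; single values were compared by exact permutation over arrays, with 0.1 the smallest possible p. The number of arrays limits the precision. Named were all member probe sets, Tyrobp, and from each list the called probe sets (at most 4) or else the 2 with the smallest p; cell markers and further probe sets of these genes were added after their values were seen. The members and lists were chosen with earlier results of these data known. Alternatives changed the scaling, the added constant, the filter and the variance model or left out arrays.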

Additional observations from a re-analysis of the deposited data

How the results depend on the processing

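The count of called tubulin probe sets, 1 with the deposited scaling, was 0 with quantile normalization, with each array centred on its median, without a filter on level and without a trend (limma; 2, 5, 4 and 3 had an unadjusted p under 0.05). In the same settings 4126, 6731, 7614 and 4647 of all tested probe sets had an unadjusted p under 0.05 (limma). Tested were 22518 probe sets, or 45037 without the filter. The tubulin count was 4 with array weights, and between 0 and 5 when 1 array was left out: 5 without knockout Ko1, 0 without any of the others (limma; 3 or 4 at an unadjusted p under 0.05). Further fits, chosen after seeing the data, gave 2 when knockout 67 and 68 were both left out (the spread then comes from the heterozygous arrays, and the lone knockout array is assumed to vary like them) and 4 when knockout Ko1 and heterozygous 81 were. Over all probe sets the count of 445 became 129 with quantile normalization, 124 without a filter, 180 without a trend, 4786 with array weights and 4685 without knockout Ko1 and heterozygous 81. It ranged from 0 (without knockout 67 or 68 or heterozygous 75 or 81; limma, with 3887, 3516, 2896 and 3272 at an unadjusted p under 0.05) to 5226 (without knockout Ko1) with 1 array left out. Centring on the median moved the median of all probe sets to -0.40 and the share of calls that were higher from 62.9% to 17.2%; with a stricter filter on level that share was 47.5%, and without a filter 50.8%. Tyrobp lost its call with a floor of 1 (-3.02), without a filter (-1.68) and without a trend (-1.68), and lay between -1.94 and -1.38 with 1 array left out, passing only without knockout Ko1.

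Some uncalled changes took the other sign. With quantile normalization Tubb2a (1427347_s_at) was at -0.0027 and Tubb6 (1446353_at) at -0.34. With each array centred on its median the Tubb2a probe sets were at -0.16 and -0.07, Tubb2b at -0.14 and Tubb6 at -0.37. With a floor of 1 Tubb6 was at -0.50. With array weights Tubb4a was at 0.30 and Tubb5 (1416256_a_at) at 0.03. With 1 array left out Tubb4a ranged from -0.40 to 0.47 and Tubb6 from -0.28 to 0.63. Without knockout Ko1 and heterozygous 81 Tubb2b was at -0.16, Tubb4a at 0.41 and Tubb5 at 0.01, and without knockout 67 and 68 Tuba4a (1417374_at) was at 0.33. Tuba1a, both other Tuba4a probe sets, Tubb3 and the dimmer Tubb5 probe set kept their sign in every setting run. The cause of these changes was not tested. No paired analysis was possible because the groups share no replicate numbers. Changes below the filter on level, as of the dimmer Tubb6 probe set, were not tested.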
